A study of Mus musculus with 12 samples.

Results

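Fc gamma receptors, their signalling adaptors and the kinase they recruit were described in mouse colon and whole blood. The 8 genes were Fcgr1, Fcgr2b, Fcgr3, Fcgr4, Fcer1g, Tyrobp, Pirb and Syk, taken by their symbol. All 8 were present among the 32689 genes of the normalized colon table and the 25514 genes of the normalized blood table. The RNA was taken from male C57BL/6 mice, aged 8 weeks, used to model ulcerative colitis (UC) with DSS. This sugar polymer, dextran sulfate sodium, injures the gut lining and is added to the drinking water. By the study's account, DSS mice drank 1.5% DSS for 7 days and then plain water. Control mice drank water alone for the same time. The labels name mice 1, 2 and 4 as UC and mice 7, 8 and 9 as control. As set out below, the study draws other groups, so which mice drank DSS is in doubt. All animals were killed on day 8, and the labels name no engineered allele. Per the study's methods, the 6 mice were chosen from a larger set by disease activity, and each gave 1 colon and 1 blood library, so that 12 libraries form 4 labelled groups of 3.

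Fc gamma receptors bind the constant part of IgG antibodies and link antibody-coated microbes or immune complexes to the cells that carry them, mainly neutrophils, monocytes, macrophages, NK cells and B cells. The activating receptors use an immunoreceptor tyrosine-based activation motif (ITAM) on a partner chain, and once phosphorylated this motif recruits the kinase Syk. Inhibitory receptors carry the opposite motif (ITIM), which recruits phosphatases. In the inflamed gut, IgG reaches luminal bacteria, and phagocytes of the mucosa meet it through these receptors.

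The 250 bases upstream of the annotated start of each receptor gene are shown as a description of sequence. No link between these bases and the counts was tested. The sequences are those of RefSeq for GRCm38.p6, written 5′ to 3′ on the strand of the gene, and 7 of the 8 genes had an entry, all but Tyrobp. Capitals mark GAGGAA, the core bound by the myeloid factor PU.1, on either strand (TTCCTC on the other), and TTCNNNGAA, the palindromic element bound by STAT factors, which reads the same on both strands. The letters of the 2 motifs do not overlap in these windows. The start is that of RefSeq: the whole windows of Fcgr2b and Fcgr3 lie inside the longer gene spans of GENCODE vM21 given further on, so they are upstream of the RefSeq start only.
Fcgr1, chr3:96293970-96294219, minus strand: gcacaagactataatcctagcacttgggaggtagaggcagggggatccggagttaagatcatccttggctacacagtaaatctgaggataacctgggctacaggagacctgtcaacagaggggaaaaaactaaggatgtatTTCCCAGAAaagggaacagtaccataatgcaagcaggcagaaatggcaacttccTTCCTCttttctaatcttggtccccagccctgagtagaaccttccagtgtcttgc
Fcgr2b, chr1:170976072-170976321, minus strand: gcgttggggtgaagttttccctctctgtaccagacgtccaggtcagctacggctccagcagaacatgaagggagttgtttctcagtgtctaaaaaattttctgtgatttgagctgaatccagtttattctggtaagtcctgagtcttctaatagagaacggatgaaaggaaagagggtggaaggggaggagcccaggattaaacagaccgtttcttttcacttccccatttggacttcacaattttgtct
Fcgr3, chr1:171059404-171059653, minus strand: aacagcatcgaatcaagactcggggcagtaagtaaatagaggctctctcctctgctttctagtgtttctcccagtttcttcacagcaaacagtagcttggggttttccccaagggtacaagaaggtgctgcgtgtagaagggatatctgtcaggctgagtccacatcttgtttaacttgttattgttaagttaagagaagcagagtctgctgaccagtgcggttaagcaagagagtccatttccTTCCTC
Fcgr4, chr1:171018676-171018925, plus strand: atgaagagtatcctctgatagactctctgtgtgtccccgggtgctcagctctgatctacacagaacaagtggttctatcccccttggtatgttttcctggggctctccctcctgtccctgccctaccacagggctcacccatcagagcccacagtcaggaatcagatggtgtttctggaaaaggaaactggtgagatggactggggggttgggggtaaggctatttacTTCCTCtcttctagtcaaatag
GAGGAA was present once upstream of Fcgr1, Fcgr3 and Fcgr4 and was not found in the window of Fcgr2b. Its first base lay 55 bases before the start in Fcgr1 and 22 in Fcgr4. Fcgr3 has 2 RefSeq starts, of which the window of 1 is shown, and the same match lay 6 bases before that start and 15 before the other. In the other genes, the Pirb window held 3 matches, the Fcer1g window none and 1 of the 2 Syk windows 1. Longer windows, which also ran past the start, held GAGGAA in 28.3% of 32851 annotated starts, so that a match by itself is common. TTCNNNGAA was present only upstream of Fcgr1 among these genes, 109 bases before the start, against 8.30% of all the longer windows. The genes named here had the same numbers of matches in the longer windows. These matches are descriptions of letters and do not show that a factor binds.

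Fcgr2b, Fcgr3, Fcgr4 and Fcer1g lie within one stretch of chromosome 1 (GRCm38, GENCODE vM21): Fcgr2b at chr1:170958617-170976547 and Fcgr3 at chr1:171051174-171064935 on the minus strand, Fcgr4 at chr1:171018920-171029761 on the plus strand, and Fcer1g at chr1:171229572-171234365 on the minus strand. Fcgr1 lies at chr3:96282909-96293969, Tyrobp at chr7:30413760-30417585, Pirb at chr7:3711409-3720391 and Syk at chr13:52583173-52648792. Pirb shares 34.0% of its exonic stretches of 50 bases with other genes, among them Gm14548, Pira2 and Lilra6, so its counts are uncertain. Fcgr3 shares 9.58% of such stretches with Fcgr2b and Fcgr2b shares 2.92% with Fcgr3. The strand of the reads was not used in counting, and 155 exon bases of Fcgr2b overlap Gm38204 on the other strand. No 50-base stretch of Fcgr1, Fcgr4, Fcer1g, Tyrobp or Syk was shared.

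Colon libraries held 69181049 to 103662306 counts and blood libraries 80867247 to 142536804, where the 7SL RNA genes took 35.9% to 65.4% of them (4.90% to 6.50% in the colon). The tissue labels matched the markers: all 9 gut epithelial genes were higher in the colon and all 7 red cell genes were higher in the blood, although a second label field names the opposite tissue for every sample. The disease labels are in doubt. The study draws mice 1, 7 and 9 as the DSS group and mice 2, 4 and 8 as controls, which goes against the labels for mice 2, 4, 7 and 9. The columns of the deposited normalized tables stand in the order 1, 7, 9, 2, 4 and 8, which keeps the groups drawn by the study together. Groups here follow the labels, and no fit was made with the other grouping. S100a8, a neutrophil gene used as the reference for inflammation, stood at normalized counts of 5370, 33.1 and 22.3 in the colon of mice 1, 2 and 4 labelled UC and of 1888, 75.6 and 13337 in that of mice 7, 8 and 9 labelled control. Its 3 highest colon values were thus in mice 1, 7 and 9. The libraries are therefore called by their label and mouse number, and each library's value is given before any group comparison.

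In the colon, all 4 receptor genes were high in mice 1, 7 and 9 and low in mice 2, 4 and 8. Fcgr4, an activating receptor for IgG2 subclasses found on neutrophils, monocytes and macrophages, showed 758, 53.1 and 70.9 normalized counts in mice 1, 2 and 4 labelled UC against 1391, 74.4 and 2581 in mice 7, 8 and 9 labelled control. Normalized counts are counts divided by one size factor per library, set separately in each tissue, and are listed in this order of mice. The lowest of the high libraries of Fcgr4 exceeded the highest of the low ones 10.2 times, and its highest library exceeded its lowest 48.6 times. Fcgr1, the high-affinity receptor, was high and low in the same libraries, with 423, 58.3 and 75.1 (labelled UC) against 806, 44.1 and 1027 (labelled control). Its highest library exceeded its lowest 23.3 times.

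Fcgr2b, the inhibitory receptor, which carries an ITIM in its own tail, had colon values of 2268, 466 and 624 in mice 1, 2 and 4 labelled UC. In mice 7, 8 and 9 labelled control it had 4728, 580 and 4612. Fcgr3, the low-affinity activating receptor, had 2115, 450 and 638 (labelled UC) against 2498, 442 and 4295 (labelled control). The inhibitory and the activating gene thus stood in the same high and low libraries, with a range of 10.1 times for Fcgr2b and 9.71 times for Fcgr3. Each of the labelled groups held high and low libraries, so the groups overlapped for all 4 receptors.

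The adaptors followed the receptors over a smaller range. Fcer1g, the common gamma chain that pairs with the activating Fc gamma receptors and supplies their ITAM, had normalized colon counts of 963, 269 and 317 (labelled UC) against 1505, 233 and 1766 (labelled control). Tyrobp (DAP12), the ITAM adaptor of TREM receptors and other myeloid and NK receptors, had 1692, 490 and 663 (labelled UC) against 2423, 526 and 3165 (labelled control). The highest library exceeded the lowest 7.57 times for Fcer1g and 6.45 times for Tyrobp. Among all pairs of the 8 genes, these adaptors had the most alike profiles over the 6 libraries in both tissues. The root mean square difference of their mean-centred log2 values was 0.162 in the colon and 0.127 in the blood.

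Pirb, an inhibitory receptor of myeloid and B cells that binds MHC class I molecules, had normalized colon counts of 1685, 236 and 269 (labelled UC) against 2565, 309 and 3678 (labelled control), a range of 15.6 times. Syk, the kinase downstream of the ITAMs, behaved otherwise. It had 7965, 4426 and 7868 in mice 1, 2 and 4 labelled UC and 10067, 8341 and 10530 in mice 7, 8 and 9 labelled control. Its highest library exceeded its lowest only 2.38 times, and mouse 8, low for the other 7 genes, stood above all 3 libraries labelled UC. Syk was the 1 gene of the 8 whose labelled groups did not overlap in the colon, which 5.66% of all genes also showed.

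**Figure D1:**
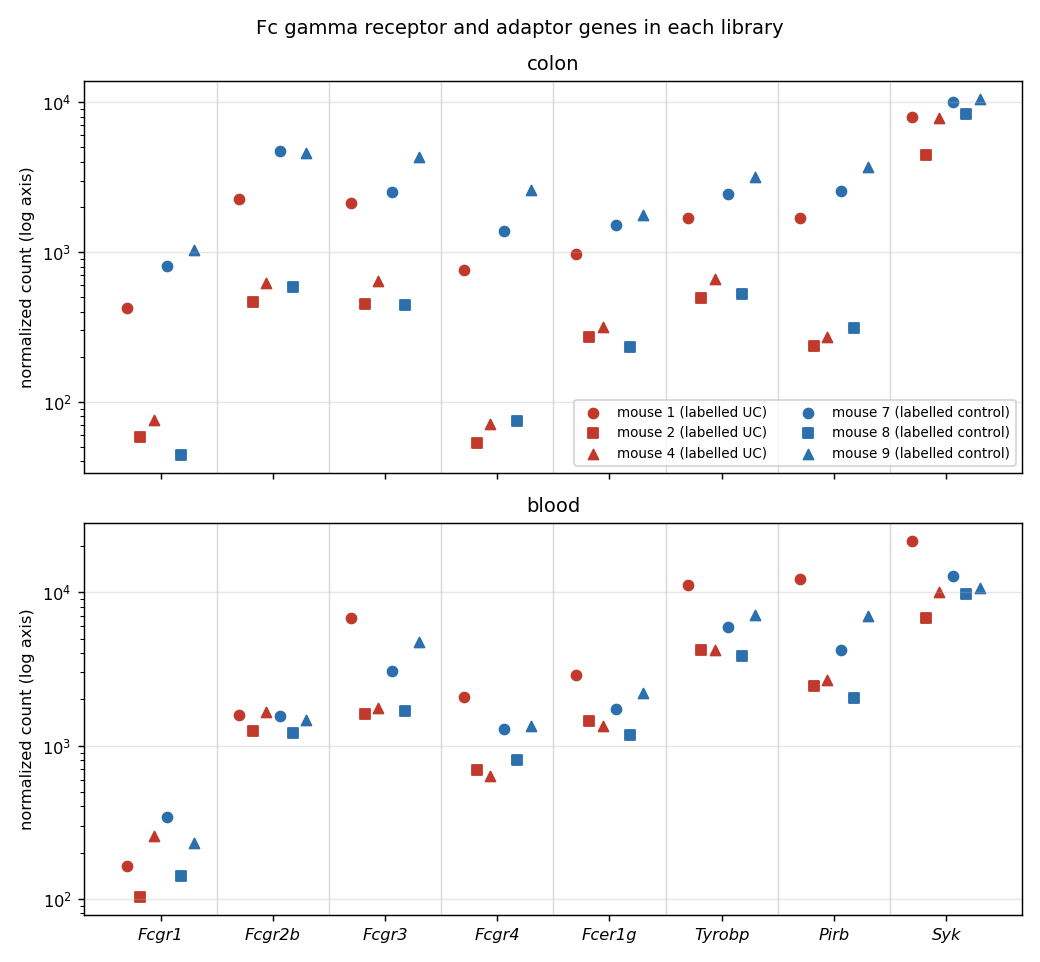
Normalized counts (log axis) of the 8 genes in each of the 6 colon libraries (top) and 6 blood libraries (bottom), with 1 point per library, coloured by the label and shaped by mouse. In the colon, mice 1, 7 and 9 stand above mice 2, 4 and 8 for 7 of the 8 genes, and Syk lies in a narrow band between 4426 and 10530.

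Across the colon table, 18.2% of the tested genes had their 3 highest values in mice 1, 7 and 9, against 7 of these 8 genes. A gap of at least 3 times between the 3 highest and the 3 lowest libraries was present in 2.65% of the 15827 genes with a mean normalized count of at least 100, and in 6 of the 8 genes, with values of 3.04 for Fcer1g, 3.31 for Fcgr3, 3.64 for Fcgr2b, 5.46 for Pirb, 5.64 for Fcgr1 and 10.2 for Fcgr4. The median gene of the colon had a ratio of highest to lowest of 1.86. Other cell markers moved with this pattern. Of 12 monocyte and macrophage markers 11 had their 3 highest colon values in mice 1, 7 and 9, as did all 5 general leukocyte markers and the 9 neutrophil markers with a mean of at least 10. The summed normalized count of the monocyte and macrophage list ran from 21170 to 48049 in the libraries labelled UC and from 19179 to 74670 in those labelled control, and none of its markers was at 0 in every library. That of the leukocyte list ran from 5798 to 12853 and from 3684 to 23797. Their part in the result was not tested, and in such bulk RNA fewer cells of a type and less RNA per cell cannot be told apart. T cell markers also moved with it, with 7 of 8 highest in these mice and sums of 1295, 1931 and 1846 in mice 1, 7 and 9 against 385, 497 and 315 in mice 2, 4 and 8. NK cell markers did so for 3 of the 5 with a mean of at least 10. The 6 B cell markers did not share the pattern: their sum was 123 in mouse 1 and 250 in mouse 8, against 1195 to 3104 in the other colon libraries.

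In the blood, the same mice were highest for Fcgr3, Fcgr4, Fcer1g, Tyrobp, Pirb and Syk, with mouse 1 first for each of these 6 genes. Of all tested blood genes, 11.8% had their 3 highest values in mice 1, 7 and 9. Pirb had the widest range, with normalized counts of 12266, 2441 and 2676 in the blood of mice 1, 2 and 4 labelled UC and of 4193, 2043 and 7062 in that of mice 7, 8 and 9 labelled control. Fcgr3 had 6774, 1612 and 1750 (labelled UC) against 3077, 1693 and 4738 (labelled control). The highest library exceeded the lowest 6.00 times for Pirb and 4.20 times for Fcgr3, while the median blood gene had a ratio of 1.91.

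Fcgr4 had blood values of 2082, 695 and 633 (labelled UC) against 1282, 803 and 1350 (labelled control). Fcer1g had 2895, 1454 and 1338 (labelled UC) against 1734, 1171 and 2217 (labelled control). Tyrobp had 11174, 4202 and 4229 (labelled UC) against 5927, 3817 and 7078 (labelled control). For all 3 genes, mouse 1 labelled UC lay above every library labelled control and mice 2 and 4 lay among or below them, so that the labelled groups overlapped.

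Syk in the blood had 21696, 6805 and 10029 (labelled UC) against 12759, 9741 and 10737 (labelled control), with the value of mouse 1 well above the rest. Fcgr2b was nearly flat, with 1584, 1239 and 1655 (labelled UC) against 1559, 1211 and 1469 (labelled control). Its highest blood library exceeded its lowest only 1.37 times, although in the colon its range was 10.1 times. Fcgr1 had another order of mice in the blood. It had 163, 102 and 256 (labelled UC) against 341, 141 and 232 (labelled control), with mice 7 and 4 highest. Labelled groups overlapped in the blood for all 8 genes, and did not overlap for 6.5% of all genes. Neutrophil markers were also highest in mice 1, 7 and 9 for 9 of 10 genes of the list, with a summed normalized count of 48881 to 485316 in the libraries labelled UC and 40703 to 359540 in those labelled control. Monocyte and macrophage markers did so for 5 of 12. None of the markers of these lists was at 0 in every blood library, and their part was not tested.

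By label, none of the 8 genes was significantly differentially expressed (SDE) in either tissue. A gene was called SDE with an absolute log2 fold change (log2FC) over 1 and an adjusted p of 0.05 or less in the quasi-likelihood test of edgeR with Benjamini-Hochberg adjustment over all tested genes. In the colon, 1 of 22238 tested genes was SDE (0.0045%), and in the blood 0 of 16759 (0%). In these edgeR fits 313 colon genes and 241 blood genes had an unadjusted p under 0.05. DESeq2 called 6 genes in each tissue. No member had an unadjusted p under 0.05 in the fits of each tissue alone with edgeR, DESeq2 or limma-voom. With all 12 libraries in 1 edgeR fit, 1 member did, Fcgr2b in the colon (log2FC -1.59, SE 0.72), and it was not SDE. All 8 colon estimates were lower in the libraries labelled UC. This direction rests on the labels: the mice that the study draws as its DSS group held the 3 highest colon values of 7 of the 8 genes, so for these 7 it turns with the grouping. They ran from a log2FC of -2.20 (SE 1.43) for Fcgr4 and -1.76 (SE 1.20) for Fcgr1 to -1.11 (SE 0.73) for Tyrobp and -0.53 (SE 0.26) for Syk, each with an edgeR adjusted p of 0.9999. Mean normalized counts of Fcgr4 were 294 ± 402 (SD, n = 3) in the libraries labelled UC and 1349 ± 1254 (SD, n = 3) in those labelled control. For this gene and the other 6 with high and low libraries in each group, the SD of the libraries labelled control exceeded the difference between the means.

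For Syk in the colon, the means were 6753 ± 2016 (SD, n = 3) in the libraries labelled UC and 9646 ± 1154 (SD, n = 3) in those labelled control, with an unadjusted p of 0.0825 in the edgeR fit across all genes. Blood estimates lay between -0.45 (SE 0.43) for Fcgr1 and 0.38 (SE 0.68) for Pirb on the log2 scale, each with an edgeR adjusted p of 0.9998. In the colon, the edgeR fit without mouse 1 gave unadjusted p-values under 0.05 for 4 of the 8 genes, as did that without mouse 8. Over all colon genes, 795 of 22754 had them without mouse 1 and 1942 of 23122 without mouse 8, against 313 of 22238 with all mice. In the blood without mouse 1, 2 of the 8 genes had them, as did 819 of all 17444 tested genes. None of the 8 was then SDE. Samples of a group are separate mice, so these tests measure the spread between animals with the same label. Under the groups drawn by the study, each label would cover both DSS and control mice, and this spread would include their difference.

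**Figure D2:**
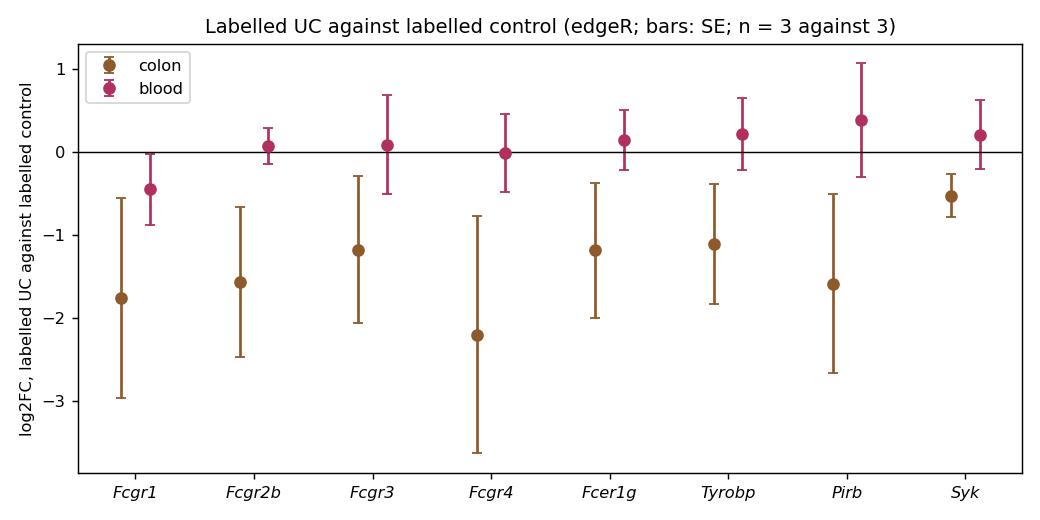
The log2FC of labelled UC against labelled control (vertical axis) for the 8 genes in colon and blood, with bars of 1 SE from the edgeR fits of 3 against 3 libraries. All 8 colon points lie below 0 with wide bars, from -2.20 for Fcgr4 to -0.53 for Syk, and the blood points lie between -0.45 and 0.38.

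Whether the labelled effect differed between tissues was asked as an interaction contrast over all 12 libraries. None of the 8 genes passed an adjusted p of 0.05 (1 of 23258 tested genes did, 0.0043%). The estimates, colon effect minus blood effect, ran from -2.20 (SE 1.61) for Fcgr4 to -0.75 (SE 0.56) for Syk on the log2 scale. In this fit, which ignored the mouse number, the lowest unadjusted p was 0.126, for Fcgr2b, with an edgeR adjusted p of 0.99999. In an edgeR fit that paired the tissues by mouse number, 1 member had an unadjusted p under 0.05, as did 466 of all 23258 genes.

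The colon and the blood themselves differed clearly. Scaled by TMM (the trimmed mean of M-values) over all 12 libraries, 7 of the 8 genes were SDE lower in the colon, against 20.8% of all 23258 tested genes (37.7% were SDE higher). The largest difference was that of Tyrobp, which had 2.67 to 17.5 CPM (counts scaled to a common library total) in the colon and 68.1 to 204 in the blood. Its colon level was lower in 6 of 6 mice, with a log2FC of -3.83 (SE 0.52, edgeR adjusted p = 6.10e-05). Pirb had 1.29 to 20.4 CPM in the colon and 36.4 to 224 in the blood, with a log2FC of -3.72 (SE 0.78, edgeR adjusted p = 0.00137). Neither gene had a colon library that reached its lowest blood library.

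Fcer1g followed at -2.92 (SE 0.52, edgeR adjusted p = 4.32e-04) and Fcgr3 at -2.74 (SE 0.64, edgeR adjusted p = 0.00260). Fcgr4 had a log2FC of -2.57 (SE 0.84, edgeR adjusted p = 0.0176), and its tissues overlapped, since the colon library of mouse 9 labelled control had 14.3 CPM and the blood library of mouse 4 labelled UC had 11.5. Without mouse 7 the edgeR adjusted p of Fcgr4 was 0.0605. Syk was lower in the colon by a log2FC of -2.28 (SE 0.29, edgeR adjusted p = 3.78e-05), with 24.1 to 58.4 CPM against 120 to 397. In the colon all 6 libraries lay below all 6 blood libraries for 5 of the 8 genes (Fcgr3, Fcer1g, Tyrobp, Pirb and Syk), as for 19.2% of all genes.

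The inhibitory receptor and the high-affinity receptor differed least. Fcgr2b had 2.54 to 27.0 CPM in the colon and 21.6 to 30.1 in the blood, with a log2FC of -1.30 (SE 0.51, edgeR adjusted p = 0.0380). The colon and blood of mice 7 and 9 were almost level (log2 ratios of -0.11 and -0.06), whereas those of mice 2 and 4 differed by -3.10 and -3.15. The call on Fcgr2b was lost without any one of mice 2, 4, 7, 8 or 9, with edgeR adjusted p-values between 0.0531 and 0.131, and with another scaling (RLE, adjusted p = 0.0522). Fcgr1 had 0.247 to 5.69 CPM in the colon and 1.81 to 6.37 in the blood, and did not pass the test (log2FC -0.97, SE 0.69, edgeR adjusted p = 0.229). It was lower in the colon in 5 of 6 mice and higher by 0.44 on the log2 scale in mouse 9.

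Directions between tissues depend on the scale. The median log2FC of all genes was 0.46 with TMM and 2.57 with the library total alone, under which 2 of the 8 genes (Tyrobp and Pirb) remained SDE lower in the colon and Fcgr1 and Fcgr2b were above 0. The RNA kit and the removal of globin RNA also differed between the tissues and cannot be told apart from them.

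**Figure D3:**
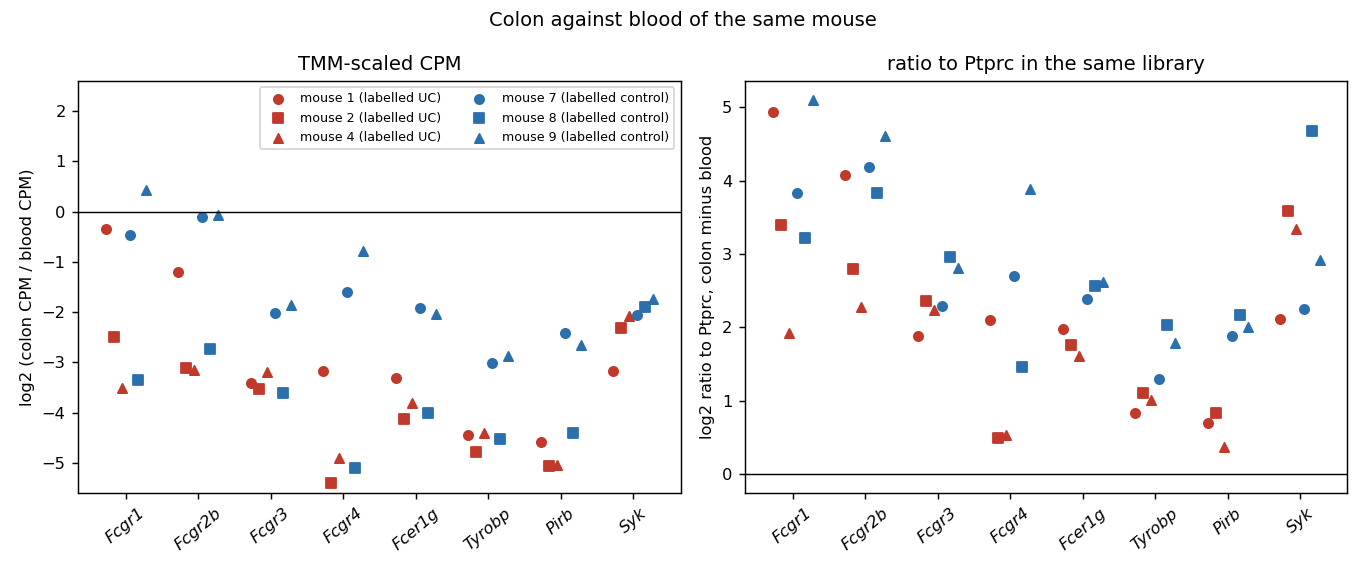
Colon against blood of the same mouse for the 8 genes, as the log2 ratio of TMM-scaled CPM (left) and as the difference in log2 ratio to Ptprc (right), with 1 point per mouse coloured by its label. On the left all points but that of Fcgr1 in mouse 9 lie below 0, and on the right all lie above 0, from 0.37 for Pirb to 5.10 for Fcgr1.

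Set against Ptprc (CD45), the surface phosphatase of all leukocytes, the direction turned round. Fcgr2b had 22.9% to 63.5% of the Ptprc count in the colon and 2.52% to 4.72% in the blood. Fcgr1 had 2.76% to 13.6% in the colon and 0.286% to 0.762% in the blood. Tyrobp had 24.4% to 44.4% in the colon and 10.8% to 23.4% in the blood. Syk had 135% to 704% in the colon, highest in mouse 8, and 18.4% to 45.4% in the blood. The colon ratio was above the blood ratio in 6 of 6 mice for all 8 genes. In the edgeR fit scaled to Ptprc, all 8 genes were SDE higher in the colon, with a log2FC of 3.88 (SE 0.67) for Fcgr1, 3.68 (SE 0.53) for Fcgr2b, 3.33 (SE 0.60) for Syk and from 1.33 to 2.38 for the others. Under this scaling 93.6% of all genes were SDE higher and 1.45% lower, with a median log2FC of 6.11, so the share of members called was near the background. Ptprc itself had normalized counts of 1185 to 7528 in the colon and 35095 to 58251 in the blood, on scales set separately for each tissue.

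Levels of different genes were compared per kilobase of exon, on the TMM-scaled CPM. In the blood the order by median was Tyrobp (141 CPM per kb), Fcer1g (33.2), Fcgr3 (25.7), Syk (20.1), Fcgr4 (15.2), Pirb (14.2), Fcgr2b (4.80) and Fcgr1 (1.39). Tyrobp lay above all others and Fcgr2b and Fcgr1 below all others in range, and the 5 genes between them overlapped. In the colon the medians were 9.74 for Tyrobp, 4.85 for Syk, 4.38 for Fcgr3, 4.04 for Fcer1g, 1.84 for Fcgr4, 1.38 for Fcgr2b, 1.24 for Pirb and 0.532 for Fcgr1, with neighbours overlapping throughout. Fcgr1 was the lowest in each of the 12 libraries. Syk stood below Fcer1g and Fcgr3 in the blood and above them in the colon by its median.

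The Fcgr2b share of the summed level of the 4 Fc gamma receptors was higher in colon than blood in 6 of 6 mice. The difference did not pass the test once adjusted. With 6 pairs, it could pass only if most of the 5 values tested reached the smallest possible p. The adjusted p therefore cannot decide on this share alone. Of the receptors' summed count per kilobase of exon, Fcgr2b made up 19.2% ± 3.49 (SD, n = 6) in the colon, with single libraries from 13.9% to 23.2%. In the blood it made up 9.62% ± 3.95 (SD, n = 6), from 4.64% to 15.1%. On this scale Fcgr3 held the largest share in each library, 39.2% to 65.6% in colon and 51.9% to 66.2% in blood libraries. Per kilobase of coding sequence the share of Fcgr2b was 39.5% ± 5.24 in the colon and 22.8% ± 8.17 in the blood (SD, n = 6 each), as Fcgr2b has 5790 exon bases of which 1020 are coding. With this length Fcgr2b exceeded Fcgr3 in the colon of mice 7 and 8. The test was added after these values were seen, and was run on the exon-length shares of all 4 receptors and on the log2 ratio of Fcgr2b to Fcgr3 counts. In an exact two-sided permutation test paired by mouse, the Fcgr2b share was higher in the colon by 9.54 ± 3.63 percentage points (SD, n = 6), with p = 0.03125, which is the smallest that 6 pairs allow, and p = 0.0781 after Benjamini-Hochberg adjustment over the 5 values. The log2 ratio, which is not independent of that share, was higher in the colon by 1.21 ± 0.88 (SD, n = 6), with the same exact and adjusted p. The Fcgr1 share was higher in the colon in 5 of 6 mice, the Fcgr3 share in 3 and the Fcgr4 share in 1, with adjusted p from the same exact test of 0.104, 0.5625 and 0.195.

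A ratio of 2 counts within one library needs neither length nor scaling. The count of Fcgr2b divided by that of Fcgr3 was 1.07, 1.03 and 0.977 in the colon of mice 1, 2 and 4 labelled UC and 1.89, 1.31 and 1.07 in that of mice 7, 8 and 9 labelled control. In the blood it was 0.234, 0.768 and 0.946 (labelled UC) against 0.507, 0.716 and 0.310 (labelled control). Each colon library lay above each blood library. In the blood, the inhibitory gene was lowest against the activating one in mice 1, 9 and 7, in that order, and in the colon no such order was present. Blood B cell markers, whose cells carry Fcgr2b as their Fc gamma receptor, had summed normalized counts of 14645 in mouse 1 and 16078 in mouse 9. The sum was 22700 in mouse 7 and 18220 to 26114 in mice 2, 4 and 8. Single markers did not all follow the sum, and Cd79a was highest in mouse 1, at 1033. The part of these cells in the ratio was not tested.

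**Figure D4:**
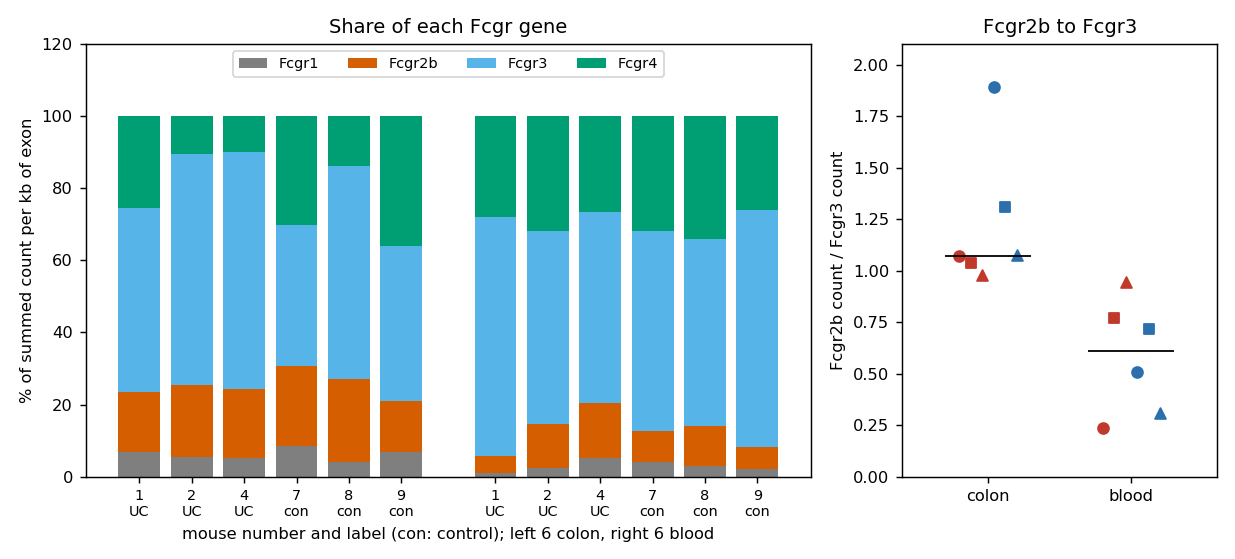
Share of each Fc gamma receptor gene in their summed count per kilobase of exon for each library (left, stacked bars to 100%) and the ratio of Fcgr2b to Fcgr3 counts (right, 1 point per library in the colours of the labels, line at the median of 6 libraries). Fcgr2b holds 13.9% to 23.2% in the colon and 4.64% to 15.1% in the blood, and the ratio is 0.977 to 1.89 in colon and 0.234 to 0.946 in blood libraries.

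Other genes of the pathway were read from lists of 116 genes: IgG heavy chains, other Fc receptors, other adaptors, receptors that pair with Tyrobp or Fcer1g, ITIM receptors, ITAM signalling and inhibitory phosphatases. By label, 0 of the 107 tested genes were SDE in the colon and 0 of 106 in the blood in edgeR, with 2 at an unadjusted p under 0.05 in each tissue. Between tissues, 85 of 109 tested genes were SDE lower in the colon and 7 higher, against 20.8% and 37.7% of all genes. The same shares stand against the counts per list below. The median log2FC of the list genes was -3.75, against 0.46 for all genes. Of the 8 members, 7 lay nearer to 0 than the list median, from -0.97 for Fcgr1 to -3.72 for Pirb, and Tyrobp lay just beyond it at -3.83. Most blood cell markers were also SDE lower in the colon. They were all 5 leukocyte, 6 B cell, 8 T cell, 6 NK cell and 7 platelet markers, and 9 of 10 neutrophil markers. Of 12 monocyte and macrophage markers 6 were lower and 4 higher, and of 8 mast cell markers 2 and 4. Dendritic cell markers were lower for 3 of 6. The part of these cells was not tested.

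Receptors that use Tyrobp or Fcer1g were SDE lower in the colon for 20 of 23 tested genes and higher for none. Among those with a mean of at least 100 counts, the largest differences were those of Gp6, the collagen receptor of platelets, at -8.18, and Trem3, a receptor of myeloid cells, at -8.13 on the log2 scale. In the colon 20 of the 23 genes of this list with a mean of at least 10 had their 3 highest values in mice 1, 7 and 9, and in the blood 14 of 23. The list of other adaptors held the ITAM chains of the T and B cell receptors and Hcst (DAP10), the adaptor of NKG2D, which has no ITAM. All were SDE lower in the colon (7 of 7), Hcst at -2.60 and the ITAM chains from -3.25 for Cd79a to -6.39 for Cd247, the zeta chain of the T cell receptor. Cd79b of the B cell receptor stood at -6.10. Tyrobp at -3.83 lay within the range of these ITAM chains, and Fcer1g at -2.92 lay nearer to 0 than each of them.

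Among other Fc receptors, 7 of 11 were SDE lower in the colon, led by Fcer2a, the low-affinity IgE receptor of B cells (-5.84), and Fcrl1 (-5.41). Higher were 3, among them Pigr, which carries IgA across the epithelium (11.60), and Fcgrt, the neonatal Fc receptor, which salvages IgG (1.29). ITIM receptors were SDE lower for 18 of 19, with Cd5 at -6.75 and Cd300lf at -5.35, and higher for 1, Ceacam1 (5.90), an adhesion molecule. Pirb at -3.72 was one more ITIM receptor lower in the colon.

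Downstream, 25 of 35 signalling genes were SDE lower in the colon and 1 was higher, the kinase Src (2.70). Lat and Lck, a scaffold and a kinase of T cells, had the largest differences among genes with a mean of at least 100 counts, at -6.10 and -5.47. Of the inhibitory phosphatases and their partners 8 of 10 were lower, with Ptpn22 at -5.31 and Inpp5d (SHIP1), the phosphatase recruited by Fcgr2b, at -3.75, and Inppl1 (SHIP2) was higher at 3.81. The inhibitory receptor and its phosphatase thus differed between tissues by -1.30 and -3.75.

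Among the IgG heavy chain genes, which encode chains of the ligand, 3 estimates were higher in the colon and 1 lower. They ran from -0.77 to 3.46 on the log2 scale. Of 4 IgG heavy chain genes only Ighg1 was SDE, higher in the colon by a log2FC of 2.20 (SE 0.90, edgeR adjusted p = 0.0466). Their summed normalized count in the colon was 42.6, 613 and 691 in mice 1, 2 and 4 labelled UC and 769, 149 and 1079 in mice 7, 8 and 9 labelled control. Mouse 1 thus had high receptor counts and the lowest IgG RNA count. Mice 2 and 4 had low receptor counts and IgG RNA counts near that of mouse 7. Ighg2c and Ighg3 were at 0 in the colon of mice 1 and 8. The colon B cell marker sum was also lowest in mouse 1, at 123, and the part of these cells was not tested. IgG protein, the ligand itself, was not measured. In the blood the sum of the IgG genes ran from 54.6 to 154.

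The gene with the pattern most like each member was found by the root mean square difference of mean-centred log2(normalized count + 1) over the 6 libraries of a tissue. In the colon, among 15842 genes with a mean of at least 100, it was Ccr1 for Fcgr3 (0.063), Ly6c2 for Fcer1g (0.091), Il15ra for Syk (0.10), Slfn10-ps for Tyrobp (0.11), Ms4a6c for Fcgr2b (0.16), Lbp for Pirb (0.18), Ly6c1 for Fcgr1 (0.23) and Cd300lf for Fcgr4 (0.28). Ms4a6c, Atp8b4 and Cd300c2 were nearest to the mean of the 8. Ccr1, a chemokine receptor of monocytes and neutrophils, had normalized colon counts of 1314, 287 and 444 in mice 1, 2 and 4 labelled UC. In mice 7, 8 and 9 labelled control it had 1598, 270 and 2858. It was picked for its likeness to Fcgr3, so being high and low in the same libraries follows from that choice.

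In the blood, among 11105 genes, the nearest were Eif4ebp1 for Syk (0.038), Gm38375 for Fcgr2b (0.040), Pira2 for Pirb (0.055), Atp6v1a for Tyrobp (0.062), Kif3b for Fcer1g (0.062), Zyx for Fcgr4 (0.066), Fam114a1 for Fcgr3 (0.071) and Ms4a6c for Fcgr1 (0.21). Pira2 shares sequence with Pirb, and the part of shared reads in their likeness was not tested. Zbtb34, Tmem50b and Itpripl2 were nearest to the mean of the 8. None of the nearest genes was the same for a member in both tissues.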

How the data were processed

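Colon and whole blood RNA of 6 mice was sequenced as total RNA after removal of ribosomal RNA, and of globin RNA in the blood. Per the study's methods, reads were trimmed, mapped to GRCm38 with STAR and quantified with StringTie 1.3.4c on Ensembl annotation without a strand setting. The deposited gene counts are whole numbers that the authors derived from transcript coverage. The deposited normalized tables hold a signal: the authors divided each count by 1 size factor per library, separately in each tissue.

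Groups follow the disease and tissue labels. The test of the counts was edgeR 4.0.16 under R 4.3.3 (TMM, filterByExpr, glmQLFit, glmQLFTest, Benjamini-Hochberg adjustment over all genes tested), each tissue alone for the label contrasts and all 12 libraries for the tissue and interaction contrasts. The study itself used DESeq2 on each tissue. Each SE was obtained as the log2FC over the root of its F value. The steps were tested on simulated data. These had known labels and the same spread for every gene, so they do not measure how the steps do on the present libraries. Members, gene lists and alternatives were chosen with earlier results of these data known. The lists leave out 2 genes that are not reported here. Named genes of the lists are, per list and direction, the 2 SDE genes with the largest difference between tissues and a mean of at least 100 counts. The nearest genes, all 8 members and S100a8 complete the rule, and Ptprc and Inpp5d's place beside Fcgr2b were read after values were seen. Sequence sharing was counted in windows of 50 bases of GENCODE vM21 exons, which held 53620 of the 53801 gene identifiers.

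Alternatives were RLE or library-size scaling, other filters, DESeq2 1.42.0, limma-voom (limma 3.58.1), the genes of the normalized tables only, all libraries in 1 fit, each mouse left out and the mouse number as a replicate block. Scaling to Ptprc, 1 coefficient per tissue and the exact permutation test of receptor shares, paired by mouse, were added after seeing the data. The study drew both tissues from the same animals, which pairs the numbers. Deviations from labelled group means were also correlated over 10578 genes between the colon and blood libraries of a mouse, with r from 0.0059 to 0.290, positive in all 6. Libraries of different mice were not set beside them, and a label exchange would enter these deviations, so they do not settle the pairing. Labelled UC and control groups share no mouse number.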

Additional observations from a re-analysis of the deposited data

How the results depend on the processing

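No label or interaction call on the 8 genes changed under any alternative run: 0 of 8 were SDE in each fit. In the colon all 8 label estimates stayed below 0 in every alternative run, but their size turned on single mice. Leaving out 1 mouse gave colon log2FC values from -3.23 (without mouse 1) to -1.23 (without mouse 9) for Fcgr1, -4.44 to -1.36 for Fcgr4, -2.15 to -0.49 for Fcgr3, -2.00 to -0.79 for Fcer1g, -1.83 to -0.67 for Tyrobp and -3.11 to -1.01 for Pirb, in each case without mouse 1 and without mouse 9. The range was -2.61 (without mouse 1) to -1.20 (without mouse 2) for Fcgr2b and -0.66 (without mouse 1) to -0.30 (without mouse 2) for Syk. In the blood, where the estimates lay near 0, the direction turned with the library size alone for Fcgr2b (-0.27), Fcgr3 (-0.49), Fcer1g (-0.32), Tyrobp (-0.27), Pirb (-0.24) and Syk (-0.19), with limma-voom for Fcgr3 (-0.12) and with scaling to Ptprc for Fcgr4 (0.12). Leaving out 1 mouse gave blood log2FC values from -0.016 to 0.20 for Fcgr2b, -0.90 to 0.50 for Fcgr3, -0.78 to 0.27 for Fcgr4, -0.28 to 0.38 for Fcer1g, -0.40 to 0.46 for Tyrobp, -0.78 to 0.89 for Pirb and -0.39 to 0.51 for Syk. The cause was not tested.

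Between tissues, 7 of the 8 genes were SDE lower in the colon and 2 with the library size alone, where Fcgr1 (1.12) and Fcgr2b (0.81) turned above 0. This scaling moved the median log2FC of all genes from 0.46 to 2.57. Scaled to Ptprc, all 8 turned and were SDE higher in the colon: Fcgr1 3.88, Fcgr2b 3.68, Syk 3.33, Fcgr3 2.38, Fcgr4 2.28, Fcer1g 2.17, Pirb 1.33 and Tyrobp 1.33. The call on Fcgr2b was also lost without a filter on low counts (adjusted p = 0.0619), with the genes of the normalized tables only (0.0530) and with 1 coefficient per tissue (0.0939). In a fit paired by animal, the mouse number was the replicate block. There 7 of 8 were SDE between tissues and 0 of 8 in the interaction, the same numbers as without it. Between tissues, the edgeR fit with the block gave all 8 members an unadjusted p under 0.05, against 7 without it. Over all 23258 genes, 16220 had one with the block and 16926 without. In the interaction 1 member had one, against 0 without the block, and over all genes 466 against 793. The pathway genes SDE between tissues numbered 92, and 80 to 94 under the alternatives (91 with the replicate block) except for scaling to Ptprc, with 61. The share of Fcgr2b among the 4 receptors was 44.7% in the colon and 27.1% in the blood without division by length. Of the 22 nearest genes, 18 were the same with a pseudocount of 10. The label contrasts rest on groups of 3 mice with labels in doubt, and no alternative varied the depth.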
